A study of Homo sapiens with 12 samples.

Results

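Collagen, laminin and integrin genes of the human tumour cells were followed in 12 xenograft tumours. Protein-coding human genes with a collagen chain, laminin chain or integrin subunit symbol numbered 75, and the 62 with 10 or more counts in at least 3 libraries are described here, out of 58243 human gene identifiers. They comprised 18 integrin subunits, 10 laminin chains, 7 basement membrane collagens (type IV and type XVIII), 9 fibrillar collagens and 18 other collagens. The rule uses symbols and count levels, with no measured difference between groups in it. The 13 genes left out reached at most 7 counts in any library, among them COL5A1 with 1 count in all, COL11A1, COL15A1, ITGA8, LAMC3 and LAMB4. Just inside the limit, COL24A1 reached 10 counts in 4 libraries and COL14A1 in 8, and the highest gene outside it was COL25A1 with 7 counts at most.

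The tumours were grown from MCFDCIS, a human breast cell line used as a graft model of ductal carcinoma in situ, injected under the skin of athymic nude mice, which lack most T cells. All 12 tumours came from this 1 line. In each of 4 groups there were 3 tumours: 2 weeks of vehicle, 2 weeks of palbociclib at 50 mg per kg daily by gavage, 2 weeks of vehicle followed by recovery, and 2 weeks of palbociclib followed by recovery. The first pair of groups, labelled initial, is called end of treatment here, and vehicle tumours were the study's baseline. The sources used here do not give the length of the recovery, the age of the mice or the make-up of the vehicle. They also do not say whether each tumour of a group grew in its own mouse, so the p-values speak only of the variation among these tumours. Palbociclib inhibits CDK4 and CDK6, kinases that move cells through G1.

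A basement membrane is the thin sheet beneath an epithelium, built from a network of type IV collagen and a network of laminins, each laminin being a trimer of an alpha, a beta and a gamma chain. Integrins are cell surface receptors of an alpha and a beta subunit that bind these networks, and in basal breast epithelium the pair ITGA6 and ITGB4 anchors hemidesmosomes to laminin. Fibrillar collagens such as types I, III and V form the fibres of the surrounding stroma and are made mainly by fibroblasts. In ductal carcinoma in situ the basement membrane still encloses the tumour cells, and in a xenograft the stroma comes from the mouse while the tumour cells are human.

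Counts assigned to genes ranged from 8004903 to 15716211 per library, and 14.2% to 25.4% of them fell on mouse genes. Levels are given in CPM, human counts relative to the scaled human library size. Levels of different genes are compared per kilobase of the longest coding transcript. The marker sums and the means of log2 CPM over genes are exceptions, with no correction for length. The human counts carried epithelial markers, with a summed level of 6937 to 10980 CPM over 8 genes including KRT5 at 976 to 1914 CPM and EPCAM at 123 to 286 CPM. All 8 were detected. Of the 8 fibroblast markers 7 reached 10 counts in 3 libraries: POSTN was at 163 to 1154 CPM and FBN1 at 64.6 to 132 CPM, while LUM stayed at or under 0.931 CPM and DCN at 2.70 to 5.08 CPM. Of the 6 endothelial markers 4 did so. PECAM1 was at 38.8 to 114 CPM, KDR at 12.6 to 48.4 CPM and CDH5 at or under 0.518 CPM. Of the 7 leukocyte markers 2 did so, CSF1R and CD14, which lay between 3.89 and 16.6 CPM in all 12 libraries. CD3E, CD68 and LYZ stayed at or under 0.185 CPM. The endothelial sum ran from 63.6 to 92.6 CPM in vehicle and 83.9 to 142 CPM in palbociclib libraries at the end of treatment, and from 52.4 to 106 and 96.5 to 116 CPM after recovery. The leukocyte sum lay between 12.4 and 21.0 CPM. Vehicle library 2 of the recovery stage stood apart: it was the highest of the 12 for 30.4% and the lowest for 32.4% of all 18628 genes tested. Vehicle libraries 2 and 3 at the end of treatment had 5.32% and 11.2% of counts on mitochondrial genes, against 0.674% to 2.64% in the others. The sources used here do not say how reads matching both species were assigned, and the part of mouse reads in the human levels was not tested. In bulk RNA, fewer cells of a type and less RNA per cell cannot be told apart.

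In the human counts, integrins and laminins had the highest summed levels and fibrillar collagens the lowest. Per kilobase ITGB4, the hemidesmosome beta subunit, was the highest integrin, at a mean of 409 CPM per kilobase over the 12 libraries. ITGB6, a receptor subunit for latent TGF-beta and fibronectin, followed at 209, ITGB1, the common partner of many alpha subunits, at 200, LAMB3, an epithelial laminin chain, at 195, ITGA3 at 181 and ITGA6 at 163. Every collagen was below these 6 genes, the highest being COL8A1 at 74.8. Integrins together made up 42.2% to 54.2% of the summed level of all 62 genes in a library, laminins 26.0% to 36.7%, other collagens 10.1% to 17.4%, basement membrane collagens 3.52% to 7.24% and fibrillar collagens 0.874% to 2.53%.

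**Figure D1:**
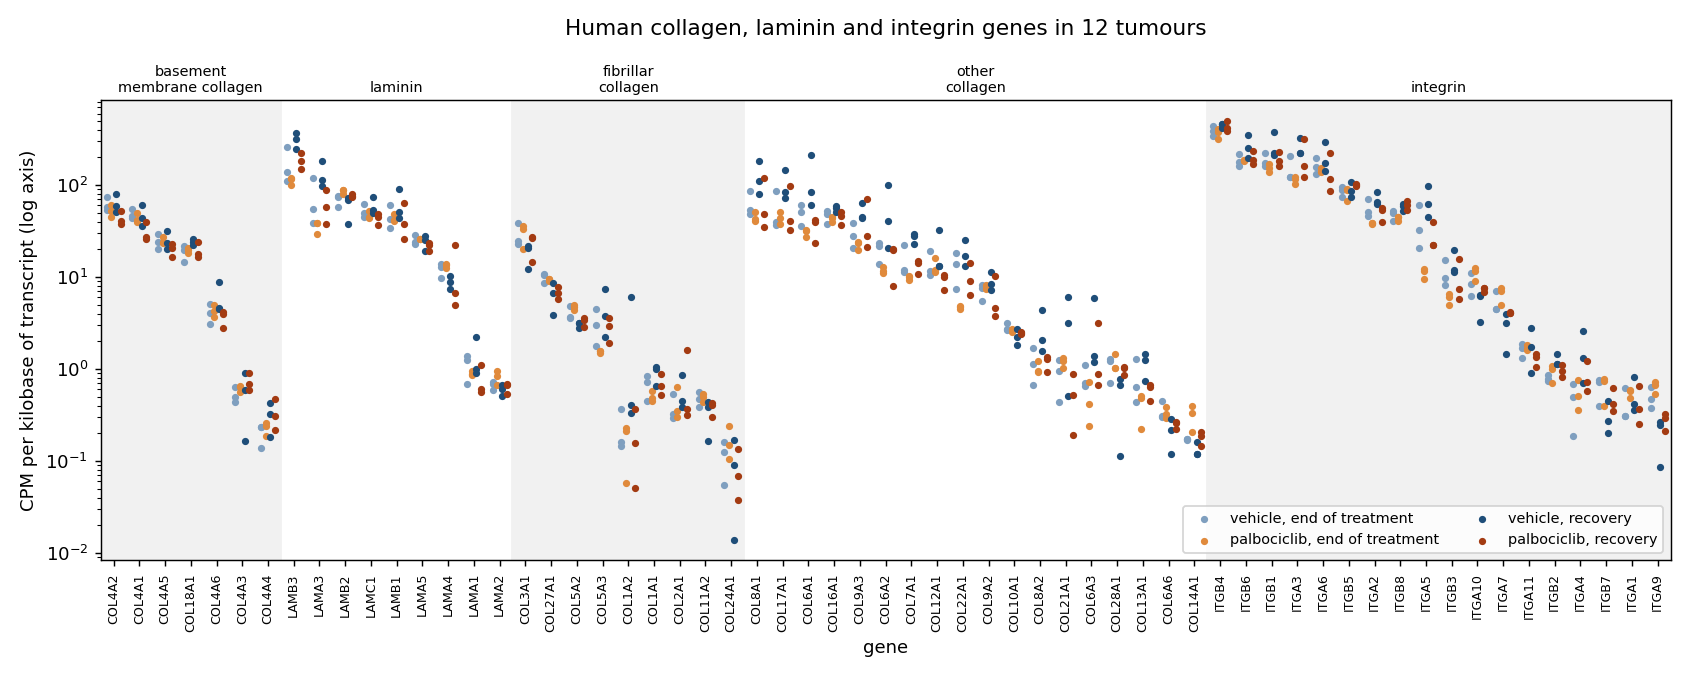
Level of 61 of the 62 genes (x axis, grouped by class and ordered by mean) in CPM per kilobase on a log axis, 1 point per library and 1 colour per group. ITGB4 and LAMB3 stand at means of 409 and 195, COL4A2 and COL4A1 at 55.4 and 42.4, and the fibrillar COL1A1 and COL1A2 lie at 0.692 and 0.71.

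Among basement membrane collagens, COL4A2 and COL4A1, the chains of the common type IV network, had mean levels of 55.4 and 42.4 CPM per kilobase and made up 33.9% to 40.1% and 22.7% to 32.0% of their class. COL4A5 followed at 23.7, COL18A1, whose C-terminal fragment is endostatin, at 20.5 and COL4A6 at 4.50. COL4A3 and COL4A4, chains of the kidney and lung network, were near the limit at 0.608 and 0.268. COL15A1, another basement membrane collagen, reached 2 counts at most and was not among the 62.

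Type IV collagen genes lie head to head in pairs, each pair sharing the stretch between its start sites. Promoter windows from RefSeq (GRCh38.p14) were found for 44 of the 62 genes. The annotated starts of COL4A1 and COL4A2 on chromosome 13 are 126 bases apart, those of COL4A4 and COL4A3 on chromosome 2 418 bases and those of COL4A6 and COL4A5 on chromosome X 379 bases at the nearest. The COL4A1 and COL4A2 stretch is printed because the 2 genes kept the steadiest ratio of the pairs examined here. It is chr13:110307158-110307283, read on the strand of COL4A2, with capitals marking CCAAT and GGGCGG, each searched on both strands.
COL4A1-COL4A2 interval: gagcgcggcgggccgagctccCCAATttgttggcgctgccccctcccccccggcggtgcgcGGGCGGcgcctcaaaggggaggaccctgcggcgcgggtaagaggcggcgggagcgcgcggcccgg
One CCAAT lay at base 22 and one GGGCGG at base 62, counted from the COL4A1 side. Of 35116 RefSeq windows of the same length just upstream of a start, 21.1% held a CCAAT and 34.6% a GGGCGG on either strand, so both are common letters in promoters. In GENCODE 29 the 2 genes overlap by 1422 bases (COL4A1 at 13:110148963-110307233, COL4A2 at 13:110305812-110513209), and without a known strand setting reads in that stretch could fall to either.

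The ratio of COL4A1 to COL4A2 per kilobase was 0.793, 0.742 and 0.811 in vehicle and 0.796, 0.818 and 0.877 in palbociclib libraries at the end of treatment. After recovery it was 0.743, 0.755 and 0.707 in vehicle and 0.77, 0.697 and 0.67 in palbociclib libraries. Over the 12 libraries this ratio spanned 1.31-fold, while COL4A2 itself ran from 243 to 526 CPM. COL6A1 to COL6A2 spanned 1.47-fold, LAMB1 to LAMC1 1.88-fold and LAMA3 to LAMB3 1.92-fold. COL4A5 to COL4A6 lay between 3.62 and 6.53. ITGA5 to ITGB1 spanned 4.31-fold, with 0.0692, 0.0684 and 0.0790 in palbociclib libraries at the end of treatment and 0.0970 to 0.295 in the other 9. COL6A1 to COL6A3, the third chain of type VI collagen, spanned 18.1-fold and COL1A1 to COL1A2 76.6-fold. These ratios are descriptions over libraries that share depth and scaling.

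**Figure D2:**
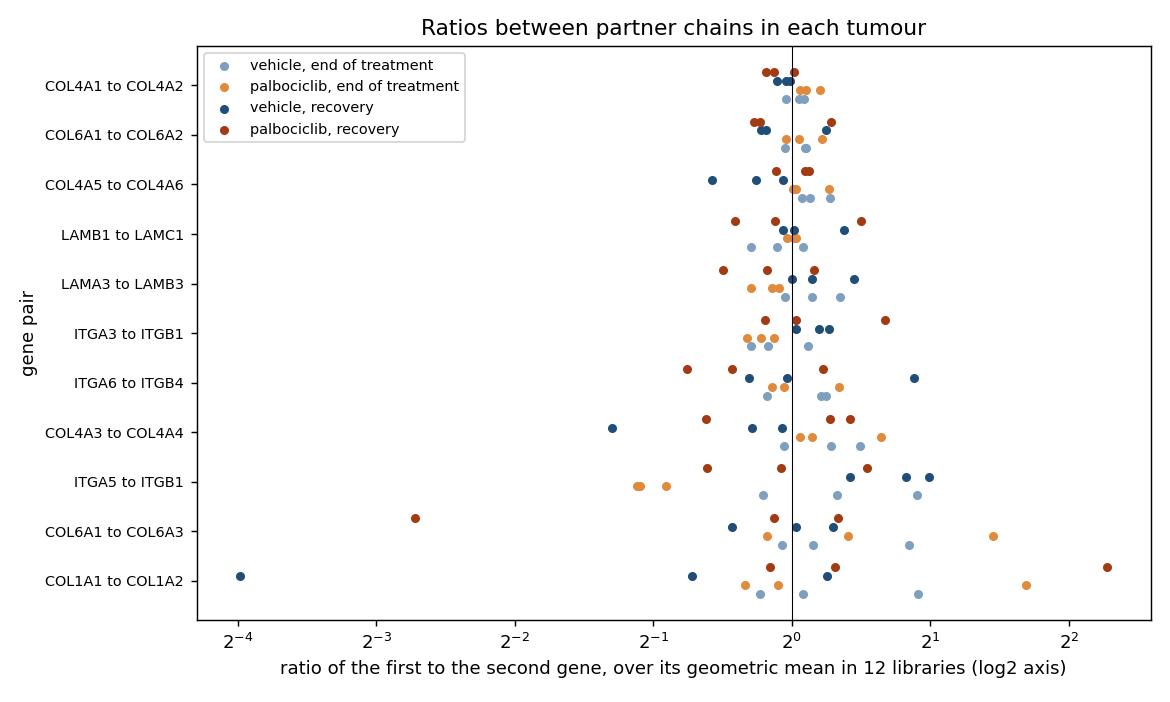
Ratio of 11 pairs of partner chains or subunits in each library (points, coloured by group), divided by the pair's geometric mean over the 12 libraries, on a log2 axis. COL4A1 to COL4A2 stays within a 1.31-fold span at the top, and COL1A1 to COL1A2 spans 76.6-fold at the bottom with the second recovery vehicle library farthest to the left.

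Among laminin chains those of stratified and glandular epithelia were abundant. LAMB3, a beta chain, made up 17.1% to 25.5% of the summed laminin level and LAMA3, an alpha chain, 5.01% to 10.3%. Of the chains of more widespread basement membrane laminins, LAMB2 was at a mean of 73.0 CPM per kilobase, LAMC1 at 50.5, LAMB1 at 48.5, LAMA5 at 24.3 and LAMA4, typical of vessel and mesenchymal laminins, at 11.4. LAMA1 at 1.03 and LAMA2, the muscle alpha chain, at 0.676 were lowest. The gene length used for LAMA3 is that of its long form, which lowers its level per kilobase relative to the short form.

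LAMA3 and LAMB3 were both highest in vehicle library 2 of the recovery stage and both low in the palbociclib libraries of the end of treatment, so the LAMA3 promoter window is shown. RefSeq places a LAMA3 start at 23873020 on the plus strand of chromosome 18, inside the gene as GENCODE 29 gives it (18:23689443-23956222). The 250 bases upstream of that start are chr18:23872770-23873019, with capitals marking TGANTCA, the AP-1 motif, which reads the same on both strands.
LAMA3 upstream: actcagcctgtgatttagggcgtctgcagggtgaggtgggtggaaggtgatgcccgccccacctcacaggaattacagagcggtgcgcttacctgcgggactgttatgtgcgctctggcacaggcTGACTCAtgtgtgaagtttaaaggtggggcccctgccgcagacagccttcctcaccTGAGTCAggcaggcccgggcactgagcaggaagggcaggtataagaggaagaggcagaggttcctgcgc
The motif was found at bases 126 and 182 of this stretch. Among 35116 upstream windows of 250 bases 6.57% held it, and among the 44 genes with a window it was found for LAMA3, LAMB3 and COL10A1. For LAMB3 1 of its 3 RefSeq starts had it and the other 2 did not. A match describes letters in the window and shows no binding.

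Fibrillar collagens were scarce and mostly COL3A1. COL3A1, the chain of type III collagen, had a mean of 24.8 CPM per kilobase and made up 40.6% to 69.5% of the fibrillar sum. COL27A1, a fibrillar collagen known from cartilage, had 8.15, COL5A2 3.77 and COL5A3 2.98. COL1A1 and COL1A2, the most abundant fibroblast collagens, stood at 0.692 and 0.71, and COL2A1, COL11A2 and COL24A1 at 0.534, 0.417 and 0.113. COL5A1, the alpha1 chain gene of type V collagen, was all but absent, with 1 count in 12 libraries.

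COL1A2 was set by 1 library. It was at 0.864, 2.00 and 0.789 CPM in vehicle and 1.15, 0.309 and 1.25 CPM in palbociclib libraries at the end of treatment. After recovery it was at 2.18, 32.6 and 1.82 CPM in vehicle and 2.01, 0.278 and 0.846 CPM in palbociclib libraries. Only vehicle library 2 was above 2.18 CPM. In the same library POSTN, a fibroblast marker, was at 1154 CPM against 163 to 331 CPM in the other 11. The summed fibroblast markers, mostly POSTN there, were at 1312 CPM, with 277 to 376 CPM in the other 3 groups. PDGFRB, FAP and FBN1 were also highest in that library, at 5.18, 10.5 and 132 CPM. DCN, LUM, PDGFRA and THY1 were not, at 3.26, 0.0959, 4.41 and 2.01 CPM. How far the COL1A2 value followed these markers was not tested. COL1A1 did not share this peak, at 6.81 CPM there and 3.02 to 7.13 CPM elsewhere.

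Basement membrane genes outweighed fibrillar genes in all 12 libraries. The summed level of laminins and basement membrane collagens over that of fibrillar collagens was 13.5, 31.7 and 20.4 in vehicle and 13.4, 22.4 and 15.3 in palbociclib libraries at the end of treatment. After recovery the ratio was 35.6, 45.2 and 46.3 in vehicle and 22.4, 26.9 and 27.4 in palbociclib libraries. The 2 groups of the end of treatment overlapped. In the recovery stage every vehicle library was above every palbociclib library. The recovery vehicle libraries were also above all 3 vehicle libraries of the end of treatment. Group means were 21.9 ± 9.22, 17.0 ± 4.75, 42.4 ± 5.89 and 25.5 ± 2.76 (SD, n = 3 each) in that order. Without COL3A1 they were 52.5, 44.5, 85.1 and 63.8, higher in each group. After recovery the vehicle libraries were then at 77.9 to 89.4 and the palbociclib libraries at 56.8 to 77.7. This was in effect a tie at the edge, with 77.8775 in the lowest vehicle and 77.6893 in the highest palbociclib library.

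Laminins made up most of the basement membrane sum. The laminin level was 591, 1258 and 727 CPM per kilobase in vehicle and 582, 668 and 634 in palbociclib libraries at the end of treatment, and 1080.7, 1765 and 1251 in vehicle against 839, 639 and 1033 in palbociclib libraries after recovery. Every recovery vehicle library was again above every recovery palbociclib library, while vehicle library 2 of the end of treatment, at 1258, lay above 2 of the 3 recovery vehicle libraries. Basement membrane collagens varied less, from 100.5 to 209.5 over the 12 libraries, and fibrillar collagens from 27.5 to 55.2. When every gene counted alike, as the mean log2 CPM of the 17 basement membrane genes minus that of the 9 fibrillar genes, the groups were at 3.71 ± 0.21, 3.73 ± 0.27, 3.88 ± 0.09 and 3.80 ± 0.18 (SD, n = 3 each) and overlapped. The mean log2 CPM of the 17 basement membrane genes alone did not overlap after recovery, at 6.91 to 7.08 in vehicle and 6.39 to 6.77 in palbociclib libraries.

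**Figure D3:**
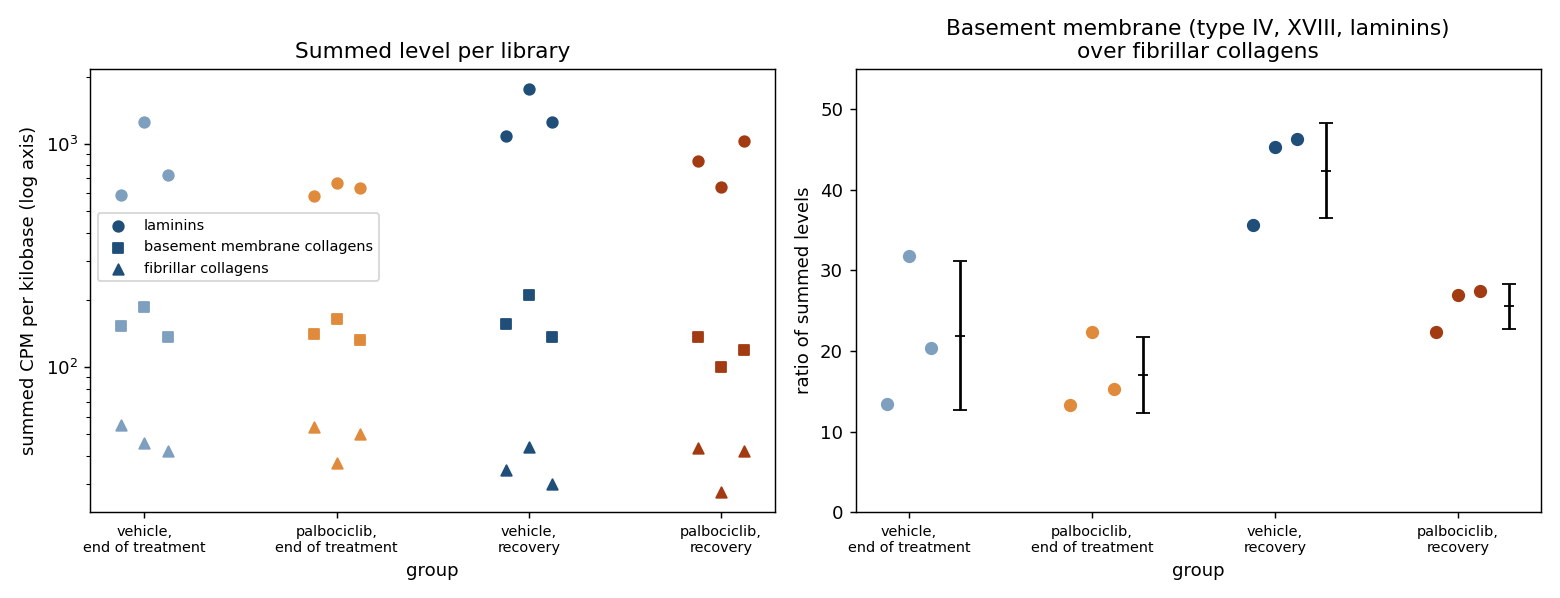
Left, summed CPM per kilobase (log axis) of laminins (circles), basement membrane collagens (squares) and fibrillar collagens (triangles) in each library by group; right, ratio of the first 2 sums together to the third, with the group mean and SD beside the points. The ratio lies at 35.6 to 46.3 in recovery vehicle libraries and at 22.4 to 27.4 in recovery palbociclib libraries.

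The first question was what palbociclib did to these genes at the end of treatment. None of the 62 genes passed at an adjusted p under 0.05 in edgeR's quasi-likelihood test, where 1.84% of the 18628 genes tested did. At an unadjusted p under 0.05, 8 of the 62 (12.9%) were lower and 1 (1.61%) was higher with palbociclib, against 6.68% and 3.18% of all genes and 9.87% of all genes in either direction. Those lower were ITGA5, ITGA2, ITGB3, COL22A1, COL7A1, COL5A3, LAMA3 and LAMB3, and the one higher was COL14A1. DESeq2 passed 2 genes, ITGA5 and COL22A1, and 2.85% of all genes. At its unadjusted p under 0.05, 8 of the 62 were lower and 0 higher, beside 6.36% and 3.13% of all genes. The median log2 fold change was -0.09, against 0.00 over all genes tested, and 26 genes were above 0 and 36 below, beside 50.1% and 49.9% of all genes.

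ITGA5, the alpha subunit of the fibronectin receptor, was at 91.6, 272 and 144 CPM in vehicle and at 42.8, 51.4 and 53.8 CPM in palbociclib libraries. Every palbociclib library was below every vehicle library. The log2 fold change was -1.78 ± 0.41 (SE) and edgeR's adjusted p was 0.0597, the smallest among the 62 genes. It passed in 4 of 20 alternative fits. The log2 fold change was -1.25 without vehicle library 2 and -0.89 without vehicle libraries 2 and 3, the 2 with high mitochondrial shares. ITGB1, its only beta partner, was at 609, 835 and 658 CPM in vehicle and 527, 639 and 579.9 CPM in palbociclib libraries, groups that overlapped, with -0.27 ± 0.21 and an adjusted p of 0.79 in edgeR.

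COL22A1, a collagen of tissue junctions, was at 47.0, 117 and 87.1 CPM in vehicle and 30.7, 28.7 and 29.8 CPM in palbociclib libraries, without overlap. Its log2 fold change was -1.49 ± 0.37 with an adjusted p of 0.0824 in edgeR, and -0.66 without vehicle libraries 2 and 3. ITGA2, the collagen-binding alpha subunit of epithelia, was at 359, 561 and 405 CPM in vehicle and 295, 305 and 302 CPM in palbociclib libraries, also without overlap, at -0.56 ± 0.18 (adjusted p = 0.196). COL7A1, the anchoring fibril collagen beneath epithelia, was at 109.8, 209 and 106 CPM in vehicle and 87.1, 95.3 and 92.5 CPM in palbociclib libraries, at -0.63 ± 0.23 (adjusted p = 0.302), and at -0.23 without vehicle library 2. The spread among the 3 palbociclib libraries of these genes was narrow, and that among the 3 vehicle libraries wide.

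The epithelial laminin chains LAMA3 and LAMB3 moved with vehicle library 2. LAMA3 was at 414, 1260 and 584 CPM in vehicle and 311, 417 and 417 CPM in palbociclib libraries (-0.98 ± 0.42, adjusted p = 0.46 in edgeR). LAMB3 was at 483, 1116 and 595 against 429, 518 and 502 CPM (-0.60 ± 0.27, adjusted p = 0.49). For both chains the groups overlapped and vehicle library 2 was highest. Without that library the log2 fold changes were -0.38 and -0.16, and without vehicle libraries 2 and 3 they were -0.12 and 1e-04. The number of genes lower at an unadjusted p under 0.05 was 2 without vehicle library 2 and 0 without vehicle libraries 2 and 3, against 4.85% and 3.61% of all genes. It was 4, 5 and 4 without palbociclib library 1, 2 and 3, beside 5.09%, 5.61% and 4.87% of all genes, and 5 without vehicle library 3 of the recovery stage, beside 6.55%. With the share of counts on mouse genes as a covariate it was 4, beside 4.93%.

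By class, basement membrane collagens had the narrowest range at the end of treatment, with log2 fold changes from -0.24 to 0.24 and a median of 0.07. Of the 7, 0 had an unadjusted p under 0.05, beside 9.87% of all genes. COL4A2 was at -0.24 ± 0.19 and COL4A1 at -0.15 ± 0.20. The chains of the widespread laminins were also near 0, LAMA5 at 0.04 ± 0.14, LAMB1 at -0.07 ± 0.34 and LAMC1 at -0.16 ± 0.17. Laminins had a median of -0.11, integrins -0.05, fibrillar collagens 0.04 and other collagens -0.24, of which 14 of 18 were negative against 49.9% of all genes. Among fibrillar chains COL3A1 was at 0.06 ± 0.32, COL1A1 at -0.39 ± 0.31 and COL5A3 at -0.99 ± 0.44 (adjusted p = 0.48). Groups did not overlap for 9 genes lower with palbociclib and 2 higher, shares of 14.5% and 3.23% beside 11.3% and 9.39% of all genes. The last 2 were LAMB2, at 430, 331 and 418 CPM in vehicle and 507, 458 and 503 CPM in palbociclib libraries, and COL14A1, at 1.10 to 1.13 and 1.35 to 2.57 CPM.

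**Figure D4:**
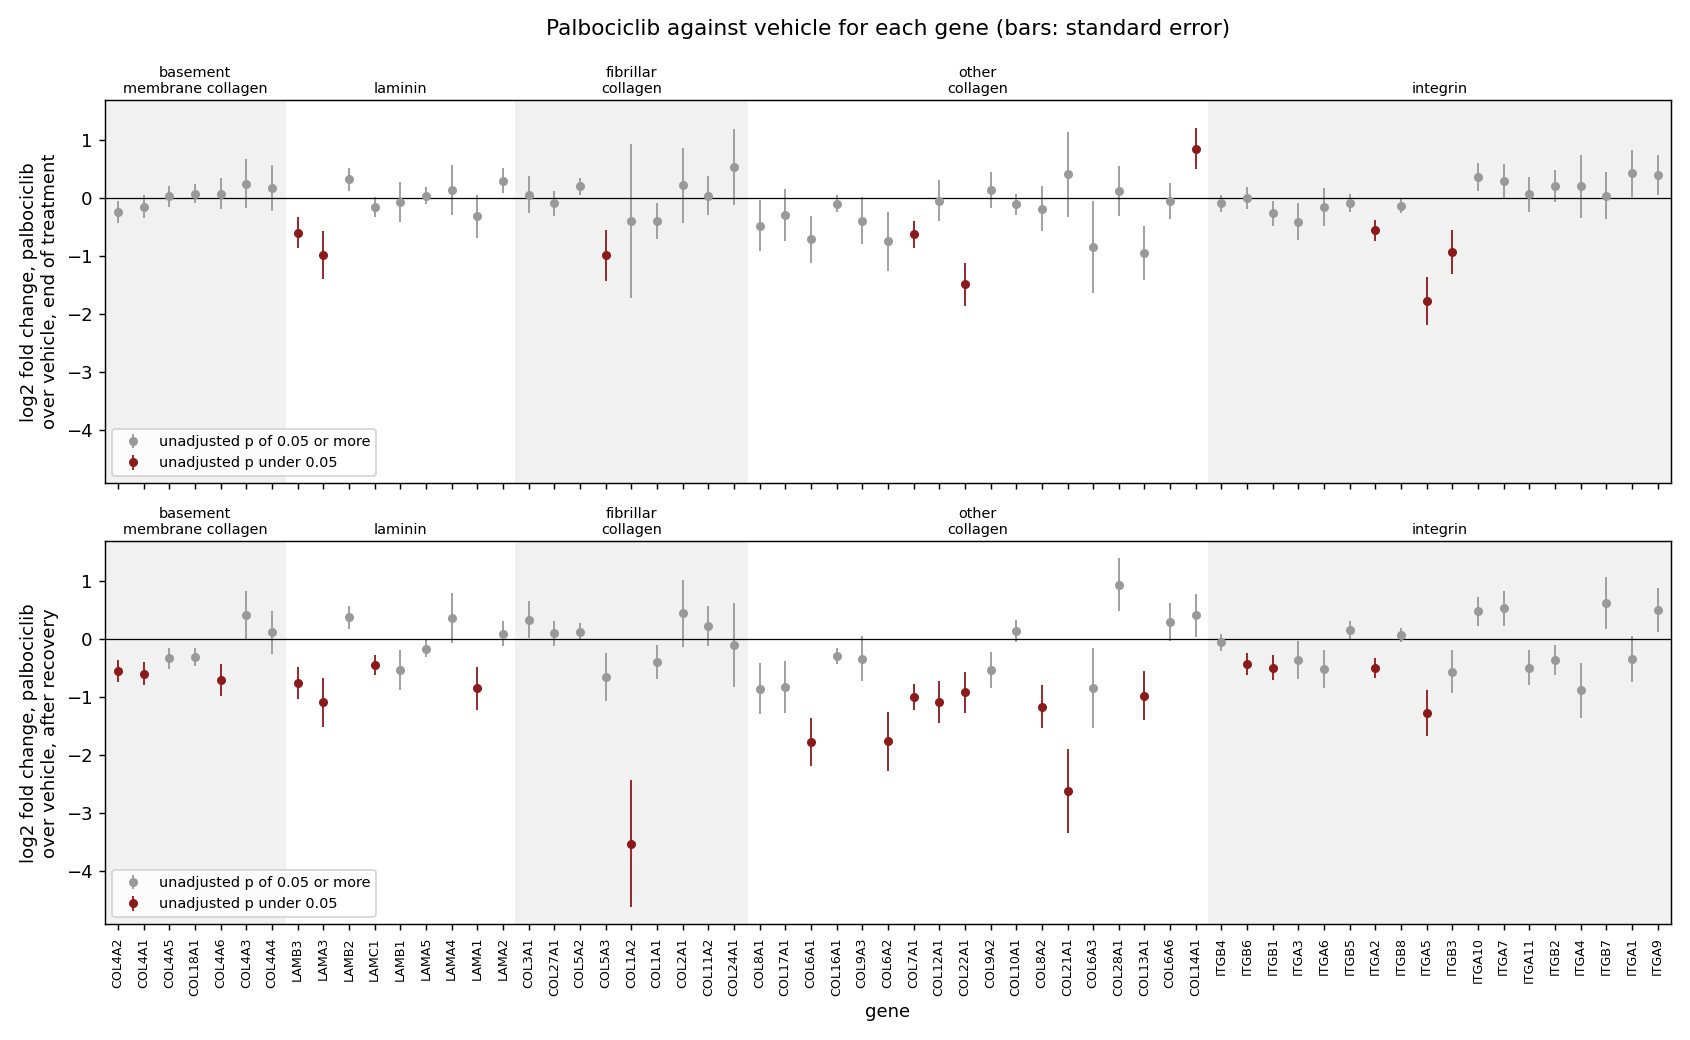
Log2 fold change of palbociclib over vehicle with its standard error for 61 of the 62 genes (x axis, by class), for the end of treatment (top) and the recovery stage (bottom), red where the unadjusted p was under 0.05. At the top 8 genes are red below 0 and 1 above, at the bottom 20 below and 0 above, and none had an adjusted p under 0.05 in edgeR.

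After recovery the question was whether palbociclib tumours still differed from vehicle tumours. Again 0 of the 62 genes passed in edgeR, where 0.00537% of all genes did, a single gene. At an unadjusted p under 0.05, 21 of the 62 (33.9%) were lower in palbociclib tumours and 0 higher, against 5.45% and 3.21% of all genes and 8.66% of all genes in either direction. They included LAMA3 and LAMB3, COL4A1, COL4A2 and COL4A6, COL6A1 and COL6A2, COL7A1 and COL12A1, and the integrins ITGA2, ITGA5, ITGB1 and ITGB6. DESeq2 passed 1 gene, COL7A1, and 0.107% of all genes. At its unadjusted p under 0.05, 20 were lower and 1 higher, beside 5.69% and 3.18% of all genes. The median over the 62 genes was -0.42, with 42 genes below 0 (67.7%) and 20 above, against 50.3% and 49.7% of all genes.

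The count of 21 changed with single libraries. Without vehicle library 2 it was 6 genes, beside 2.16% of all genes, and the median was -0.19 with 46 of 62 negative. Without palbociclib library 2 it was 11 genes, and without palbociclib library 3 it was 32 genes, beside 2.75% and 6.17% of all genes. Leaving out vehicle library 2 and palbociclib library 3 together gave 17 genes, beside 3.04%, an alternative chosen after the data were seen. With each library's share of counts on mouse genes as a covariate it was 9 genes, beside 2.87% of all genes. That share was 14.2% to 18.1% in vehicle and 19.0% to 21.6% in palbociclib libraries of the recovery stage.

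COL7A1 had the smallest p. It was at 256, 210.3 and 274 CPM in vehicle and 131, 100.4 and 137 CPM in palbociclib libraries, with every vehicle library above every palbociclib library. The log2 fold change was -1.01 ± 0.23 with an adjusted p of 0.57 in edgeR, and it lay between -1.11 and -0.88 when each library was left out in turn. Vehicle library 2 was here the lowest of its group. It was the highest of the 12 libraries for 34 of the 62 genes and the lowest for 16, beside 30.4% and 32.4% of all genes.

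COL6A1, a chain of the beaded filaments around cells, was at 255, 906 and 356 CPM in vehicle and 167, 176 and 100.2 CPM in palbociclib libraries, without overlap. Its log2 fold change of -1.78 ± 0.42 was -1.05 without vehicle library 2. COL6A2, its partner, was at 72.2, 348 and 140.5 CPM against 68.1, 69.5 and 27.8 CPM, also without overlap, at -1.76 ± 0.51, and at -0.94 without that library. COL21A1, a collagen associated with fibrils, was at 13.7, 26.5 and 2.20 CPM against 2.26, 0.833 and 3.81 CPM, groups that overlapped, at -2.62 ± 0.73 and at -1.82 without vehicle library 2. Each had an adjusted p of 0.57 in edgeR.

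LAMA3 and LAMB3 did not overlap between the groups after recovery. LAMA3 was at 1052, 1935 and 1219 CPM in vehicle and 621, 402 and 947 CPM in palbociclib libraries (-1.09 ± 0.42). LAMB3 was at 1069, 1598 and 1374 against 791, 638 and 953 CPM (-0.76 ± 0.27). Both had an adjusted p of 0.57 in edgeR, and without vehicle library 2 they were at -0.79 and -0.62. The lowest vehicle library exceeded the highest palbociclib library by a small margin in both cases, 1069 against 953 CPM for LAMB3.

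**Figure D5:**
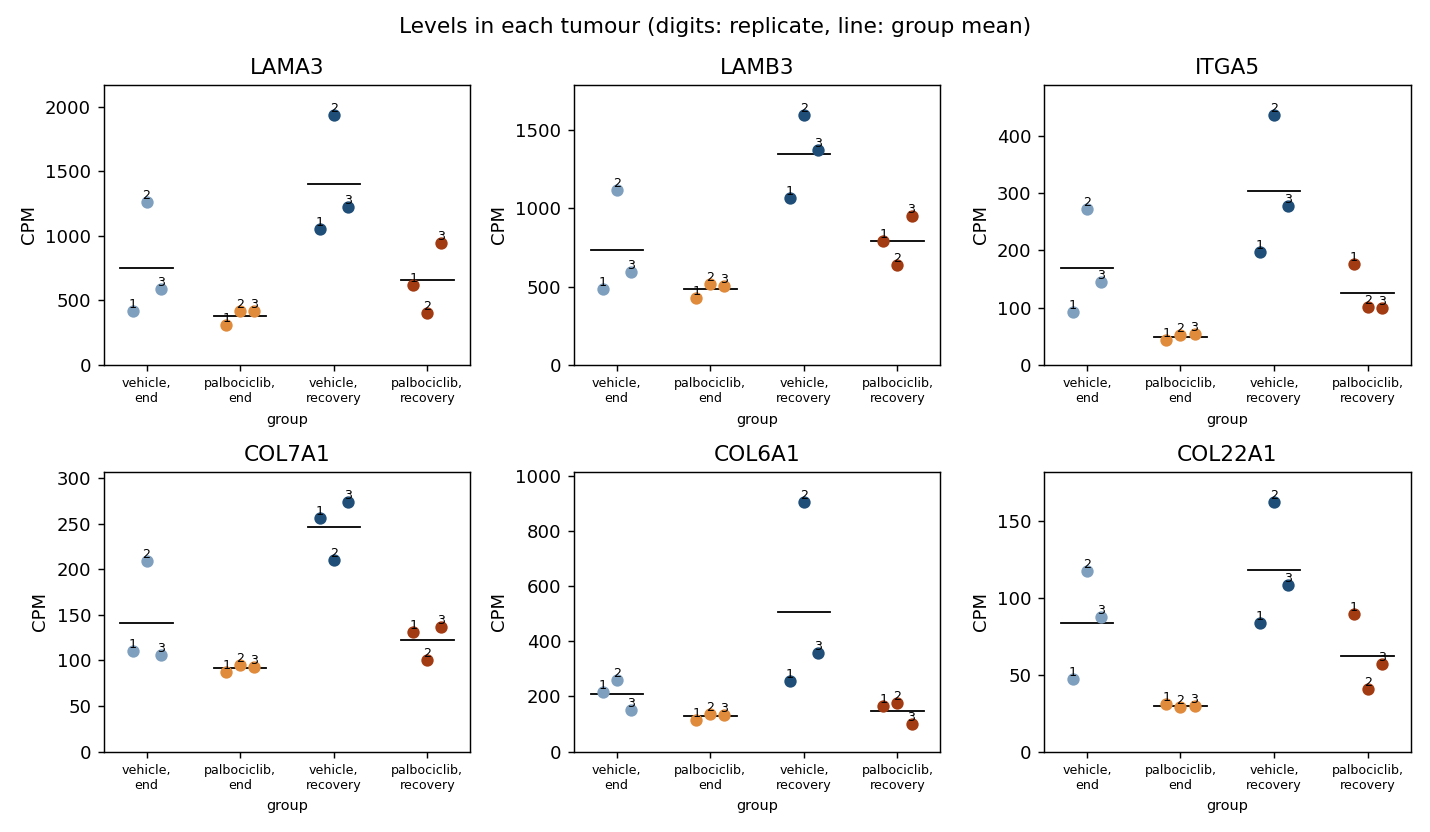
CPM (y axis, from 0) of LAMA3, LAMB3, ITGA5, COL7A1, COL6A1 and COL22A1 in each tumour by group, with the replicate number at each point and a line at the group mean. Vehicle replicate 2 is the highest vehicle point in every panel at the end of treatment, and in the recovery stage everywhere but in COL7A1, where it is the lowest at 210.3 CPM.

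The type IV collagen chains went both ways in the same comparison, and none passed, with an adjusted p of 0.57 or more in edgeR. COL4A1 was at 289, 405 and 240 CPM in vehicle and 264, 172 and 180 CPM in palbociclib libraries (-0.60 ± 0.20), and COL4A2 at 382, 526 and 333 against 337, 243 and 264 CPM (-0.56 ± 0.19). For both, 1 palbociclib library reached into the vehicle range. COL4A6 was at 30.9, 59.7 and 30.2 against 28.2, 18.7 and 27.1 CPM (-0.71 ± 0.27) and did not overlap. COL4A5 was at -0.33 ± 0.18 and COL18A1 at -0.32 ± 0.16. The scarce COL4A3 was at 4.80, 1.34 and 7.39 against 5.52, 7.41 and 4.82 CPM (0.41 ± 0.41) and COL4A4 at 3.23, 1.82 and 4.28 against 4.68, 3.06 and 2.20 CPM (0.11 ± 0.36), both with overlap. Without vehicle library 2 COL4A1, COL4A2 and COL4A6 were at -0.36, -0.35 and -0.31.

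Among the other laminin chains LAMC1, the gamma chain of most basement membranes, was at 428, 591 and 389 CPM in vehicle and 351, 292 and 382 CPM in palbociclib libraries. The groups did not overlap, by a margin of a few CPM, and the log2 fold change was -0.46 ± 0.17. LAMB1 at -0.54 ± 0.34 and LAMA5 at -0.17 ± 0.14 overlapped. COL12A1 was at 156, 382 and 155 against 117, 84.0 and 124 CPM (-1.09 ± 0.36), without overlap, and at -0.52 without vehicle library 2.

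Among the integrins that bind fibronectin or collagen, ITGA5, ITGA2 and ITGB1 had negative log2 fold changes. ITGA5 was at 198, 436 and 278 CPM in vehicle and 176, 100.4 and 99.4 CPM in palbociclib libraries, without overlap, at -1.28 ± 0.40. ITGA2 was at 519.9, 669.7 and 486 against 421, 316 and 445 CPM (-0.50 ± 0.18), also without overlap. ITGB1, their common partner, was at 850.5, 1414 and 803 against 693, 610.3 and 873 CPM (-0.50 ± 0.21) and overlapped because of palbociclib library 3. Of the other collagen-binding alpha subunits ITGA10 was at 34.02, 17.3 and 32.9 CPM in vehicle and 40.3, 39.9 and 36.4 CPM in palbociclib libraries, higher without overlap at 0.47 ± 0.25, while ITGA1 at -0.35 ± 0.39 and ITGA11 at -0.50 ± 0.30 overlapped. None passed, with an adjusted p of 0.57 or more in edgeR.

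The hemidesmosome genes ITGB4, ITGA6 and COL17A1 overlapped between the groups. ITGB4 was at 2761, 2469 and 2742 CPM in vehicle and 2449, 2271 and 2944 CPM in palbociclib libraries, at -0.06 ± 0.15, with overlap. ITGA6 was at 985, 1657 and 807 against 663, 490 and 1256 CPM (-0.52 ± 0.33), and COL17A1, the collagen that spans the membrane in hemidesmosomes, at 412, 822 and 480 against 229, 184 and 555 CPM (-0.82 ± 0.45). Both overlapped because palbociclib library 3 lay above 1 or more vehicle libraries. ITGA3, another laminin receptor subunit, was at 1088, 1609 and 1078 against 790.4, 596 and 1554 CPM (-0.36 ± 0.32), and at -0.86 without palbociclib library 3.

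Palbociclib library 3 of the recovery stage was the highest of its group by far for a few collagens and laminins. COL8A1, a short-chain network collagen of vessel walls, was at 690 CPM there and 274 and 201 CPM in its group. LAMA4 was at 145 CPM against 44.3 and 32.4, COL9A3 at 178 against 69.4 and 52.8, and COL6A3 at 34.3 against 9.44 and 7.22 CPM. These 4 genes were chosen after their values were seen.

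By class after recovery, 5 of 10 laminins, 8 of 18 other collagens and 3 of 7 basement membrane collagens were lower at an unadjusted p under 0.05. So were 4 of 18 integrins and 1 of 9 fibrillar collagens, beside 5.45% of all genes. The fibrillar one was COL1A2, at -3.52 ± 1.09 and at -0.92 without vehicle library 2. The class medians were -0.50, -0.85, -0.33, -0.37 and 0.09 in that order. COL3A1, at 115, 119.6 and 67.4 CPM in vehicle and 146, 80.4 and 151 CPM in palbociclib libraries, was at 0.32 ± 0.32. Groups did not overlap for 14 lower genes (22.6%) and 4 higher genes (6.45%), beside 5.51% and 6.32% of all genes. The 4 higher were LAMB2, COL28A1, ITGA7 and ITGA10. In these comparisons the summed fibroblast markers ran from 393 to 1312 CPM in vehicle and from 277 to 327 CPM in palbociclib libraries. Of the 1312 CPM, POSTN alone held 1154 CPM. The part of these markers in the counts was not tested.

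The test of whether the palbociclib effect differed between the stages passed no gene. In edgeR 0 of 62 passed against 0.22% of all genes, and at an unadjusted p under 0.05 there was 1 lower gene, COL21A1, and 0 higher, against 1.77% and 3.46% of all genes and 5.22% in either direction. DESeq2 had 3 lower and 0 higher at its unadjusted p under 0.05, beside 1.85% and 3.22% of all genes. It also passed 0 of the 62, beside 0.558% of all genes. The edgeR count of lower genes changed with single libraries. It was 7 without vehicle library 2 of the end of treatment, beside 1.82% of all genes. Without palbociclib library 3 of the recovery stage it was 7, beside 2.52%. Without vehicle library 1 or 3 of that stage it was 7 and 8, beside 2.59% and 4.91%. It was 3 without palbociclib library 1 of that stage, beside 1.26%, and 1 with any other single library left out. The difference was below 0 for 36 genes and above 0 for 26, beside 48.7% and 51.3% of all genes. COL21A1 had a log2 difference, recovery minus end of treatment, of -3.02 ± 1.02 (adjusted p = 0.71). It was followed by COL4A6 at -0.78 ± 0.38, COL12A1, a fibril-associated collagen, at -1.04 ± 0.50 and COL8A2 at -0.98 ± 0.54, all with an adjusted p of 0.95. Without vehicle library 2 of the recovery stage the last 3 were at -0.38, -0.47 and -0.41. The effects on LAMA3 and LAMB3 differed by -0.12 ± 0.58 and -0.16 ± 0.38, and that on COL4A1 by -0.45 ± 0.28. A miss of the threshold does not show that the 2 effects were equal.

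Within vehicle tumours, recovery was compared with the end of treatment to see how these genes differed between the stages without the drug. No gene of the 62 passed, as 0% of all genes did in edgeR, and DESeq2 passed 0 of the 62 and 0.446% of all genes. At an unadjusted p under 0.05, 17 of the 62 (27.4%) were higher and 8 (12.9%) lower, against 7.97% and 6.46% of all genes. DESeq2 had 18 higher and 9 lower, beside 8.87% and 6.01% of all genes. The median was 0.35, with 44 genes above 0 and 18 below, beside 49.4% and 50.6% of all genes. Without vehicle library 2 of the recovery stage 7 were higher and 5 lower, beside 3.45% and 3.44% of all genes. Without vehicle library 1 of the end of treatment 10 were higher and 3 lower, beside 6.23% and 6.04% of all genes. Without its library 3, 8 were higher and 6 lower, beside 3.97% and 3.71%. The vehicle recovery libraries are the same that entered the drug comparison after recovery.

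The 17 higher genes were 7 other collagens, 6 integrins, 2 laminins, COL18A1 and COL1A2, the last at 3.33 ± 1.11 and at 0.73 without vehicle library 2 of the recovery stage. COL7A1 was at 0.80 ± 0.23 (adjusted p = 0.299) with every recovery library (210.3 to 274 CPM) above every earlier one (106 to 209 CPM), and it passed at 1.20 without vehicle library 2 of the end of treatment. ITGA4, a leukocyte and mesenchymal integrin subunit, was at 2.07, 2.88 and 0.789 CPM earlier and 5.50, 10.9 and 2.98 CPM after recovery, at 1.73 ± 0.51 (adjusted p = 0.303). LAMB3 was at 0.88 ± 0.27 (adjusted p = 0.31), with 1 earlier library inside the later range. ITGA3 at 0.77 ± 0.32 and COL18A1 at 0.37 ± 0.16 did not overlap.

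The 8 genes lower in the vehicle tumours after recovery were ITGA7, ITGA9, ITGA10, ITGB7, COL5A2, COL27A1, COL28A1 and COL6A6. ITGA9, a tenascin receptor subunit, was at 3.72, 3.00 and 5.05 CPM earlier and 1.92, 0.671 and 2.08 CPM later, at -1.33 ± 0.38 (adjusted p = 0.295), without overlap. COL27A1 was at 66.5, 85.0 and 83.0 against 52.3, 30.3 and 66.5 CPM (-0.66 ± 0.22), COL5A2 at 34.7, 26.0 and 25.7 against 22.2, 19.7 and 22.4 CPM (-0.43 ± 0.15) and COL3A1 at 212, 136 and 127 against 115, 119.6 and 67.4 CPM (-0.66 ± 0.32). COL3A1 had an unadjusted p above 0.05. These 3 of the 9 fibrillar collagens were lower without overlap, and 0 were higher without overlap. For COL27A1 this was in effect a tie, with 66.5316 CPM in the lowest earlier library and 66.5304 CPM in the highest later one. Over the 62 genes 7 were higher and 7 lower without overlap, 11.3% each, beside 6.7% and 8.03% of all genes.

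Within palbociclib tumours, recovery followed release from the drug. Here 2.82% of all genes passed in edgeR and 0 of the 62. DESeq2 passed 5 and 4.42% of all genes; the 5 were ITGB8, ITGA5 and COL22A1, higher, and ITGA9 and COL5A2, lower. At an unadjusted p under 0.05, 7 were higher and 7 lower, 11.3% each, against 8.81% and 5.55% of all genes. DESeq2 had 9 higher and 6 lower, beside 8.59% and 5.27% of all genes. Without palbociclib library 1, 2 or 3 of the end of treatment the higher genes numbered 3, 4 and 6, beside 6.46%, 6.6% and 6.6% of all genes, and the lower 3, 4 and 4, beside 3.85%, 3.81% and 3.85%. Without palbociclib library 2 of the recovery stage there were 13 higher and 2 lower, beside 7.62% and 4.05% of all genes. Without its library 3 there were 3 and 4, beside 6.61% and 4.02%, and without vehicle library 2 of the end of treatment 11 and 6, beside 8.39% and 5.31%. The median was 0.02, with 31 genes on either side of 0, beside 48.5% of all genes above and 51.5% below.

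ITGB8, a subunit that binds latent TGF-beta, was at 360.1, 392 and 394 CPM at the end of treatment and 470.5, 586 and 537 CPM after recovery. The groups did not overlap, the log2 fold change was 0.48 ± 0.13 and the adjusted p in edgeR 0.0704. It passed in 5 of 20 alternatives, among them the fit without vehicle library 2 of the recovery stage, which is no part of this comparison and enters through the shared spread. COL5A2 was at 35.2, 33.3 and 31.2 CPM earlier and 25.6, 20.4 and 24.1 CPM later (-0.51 ± 0.14, adjusted p = 0.0839), and ITGA9 at 5.33, 5.77 and 4.23 against 1.67, 2.31 and 2.54 CPM (-1.23 ± 0.35, adjusted p = 0.0839), both without overlap. COL5A2 is the alpha2 chain of type V collagen, whose alpha1 chain gene COL5A1 had next to no counts. ITGA5 was at 176, 100.4 and 99.4 CPM after recovery, every library above the 42.8 to 53.8 CPM of the end of treatment, at 1.35 ± 0.40 (adjusted p = 0.14). In vehicle tumours ITGA5 was at 91.6, 272 and 144 CPM earlier and 198, 436 and 278 CPM later. ITGB8 was there at 358, 437 and 462 against 549, 459 and 514 CPM, both with overlap.

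LAMB3 and LAMA3 were higher in palbociclib tumours of the recovery stage, without passing the test. LAMB3 was at 0.72 ± 0.27, with every recovery library above every earlier one, and LAMA3 at 0.78 ± 0.42 with overlap. In vehicle tumours LAMB3 was at 483, 1116 and 595 CPM earlier and 1069, 1598 and 1374 CPM later. LAMA3 was there at 414, 1260 and 584 against 1052, 1935 and 1219 CPM, both chains with overlap. COL4A1 was at -0.48 ± 0.20 and COL4A2 at -0.28 ± 0.19, both with overlap. The class medians were 0.20 in other collagens, 0.17 in integrins, -0.14 in laminins, -0.23 in basement membrane collagens and -0.36 in fibrillar collagens. Groups did not overlap for 10 higher and 14 lower genes, 16.1% and 22.6%, beside 14.9% and 14.2% of all genes.

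Genes that build, crosslink and bind these proteins were taken from 3 lists. Of the enzymes and chaperones that process collagen, 22 of 23 were tested, and 1 passed at the end of treatment, beside 1.84% of all genes. P4HA1, a subunit of prolyl hydroxylase, was at 164, 194 and 159.9 CPM in vehicle and 76.4, 95.6 and 79.7 CPM in palbociclib libraries, so every palbociclib library was below every vehicle library. It fell by 1.04 ± 0.19 on the log2 scale (adjusted p = 0.00882 in edgeR). Among palbociclib tumours it was higher in those of the recovery stage, at 131, 180.1 and 115 CPM, with 0.76 ± 0.19 (adjusted p = 0.0463 in edgeR). In that comparison 2.82% of all genes passed. Vehicle tumours of the recovery stage were at 178, 286 and 225 CPM, overlapping the earlier 164, 194 and 159.9 CPM. After recovery P4HA1 was at -0.69 ± 0.19 in palbociclib against vehicle tumours (adjusted p = 0.57 in edgeR) and did not pass.

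The other processing genes did not pass in any of the 5 comparisons. PLOD2, a lysyl hydroxylase, was at -0.69 ± 0.25, LOX, a crosslinking oxidase, at -0.86 ± 0.33 and LOXL3 at -0.55 ± 0.23 at the end of treatment, with adjusted p of 0.29, 0.36 and 0.43. The list's median was -0.22 at the end of treatment, -0.46 after recovery, 0.54 with time in vehicle tumours and 0.41 in palbociclib tumours.

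Of 15 basement membrane partners 13 were tested and 0 passed in edgeR in any comparison, beside 0% to 2.82% of all genes. After recovery PXDN, which crosslinks type IV collagen, was at -0.56 ± 0.17, HSPG2, the gene of perlecan, at -0.65 ± 0.21 and FREM2 at -1.25 ± 0.39, with an adjusted p of 0.57 each. NID2, a nidogen that joins laminin to type IV collagen, was at -1.07 ± 0.49 at the end of treatment. The list's median was -0.07 at the end of treatment and -0.24 in the recovery stage.

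All 22 genes of integrin adhesions and hemidesmosomes were tested, and 1 passed, in a comparison where 2.82% of all genes did. LIMS1, the PINCH adaptor of integrin-linked kinase, rose in palbociclib tumours with recovery by 0.79 ± 0.16 (adjusted p = 0.0125 in edgeR), from 45.6, 51.5 and 53.6 CPM to 78.2, 88.0 and 95.0 CPM. Every later library was above every earlier one. In vehicle tumours it was at 47.2, 70.1 and 71.0 CPM earlier and 96.7, 123 and 102 CPM later, at 0.78 ± 0.16 (adjusted p = 0.21). The list's median was -0.07 for the drug at the end of treatment and -0.04 in the recovery stage.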

How the data were processed

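RNA from 12 xenograft tumours was sequenced, and the authors deposited 1 table per tumour of raw counts per Ensembl gene, human and mouse genes together. Per the submitters' processing notes, the tools were CASAVA 1.8, cutadapt, STAR and edgeR, with GRCh38 and GRCm38; the sources used here name no counting program, strand setting or annotation release. Rows that name no gene (4 per table, 37.0% to 69.1% of all counts) and 713 repeated rows were dropped. Human rows were matched by identifier to GENCODE 29 symbols.

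Human genes were tested with edgeR 4.0.16 (filterByExpr, TMM scaling, quasi-likelihood F test) in R 4.3.3 over all 4 groups at once, 18628 genes, with Benjamini-Hochberg adjustment over all of them and a threshold of 0.05. Standard errors come from the fitted coefficient and its test statistic. Levels per kilobase use the longest coding transcript. DESeq2 1.42.0, other scaling, other filters and left-out libraries were alternatives. The test was checked on simulated counts whose spread was set by the mean level. Only the palbociclib tumours of the end of treatment were changed in them and no library stood apart. That check therefore does not cover the effect of single outlying libraries. The members and lists were chosen with earlier results of these data known. Named genes were 25 fixed chains and subunits (the main basement membrane, fibrillar and receptor genes), the 4 with the smallest p in each comparison, the highest of each class per kilobase and up to 4 per list; any other was named after its values were seen. The values of 1 gene of the 62 are not reported here; it stays in the counts and class sums. Replicate libraries differed by more than counting noise (chi-square per degree of freedom 4.07 to 53.2), so each counted as 1 sample.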

Additional observations from a re-analysis of the deposited data

How the results depend on the processing

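Of 2495 alternative values of named genes, 2389 had the sign of the reported value. A further 81 changed sign by less than 1 standard error and 25 reversed. These values cover only collagen, laminin and integrin genes, the fixed ones and those with the smallest p in each comparison. P4HA1, LIMS1 and the other genes of the processing, partner and adhesion lists were not among them. Whether the results for those genes hold in the alternative fits was not tested. Counts of passing collagen, laminin and integrin genes, 0 throughout in the reported fits, moved with the tool. At the end of treatment DESeq2 passed 2 (2.85% of all genes), the filter of 10 counts in 6 libraries 1 (2.11%), the fit on only the groups compared 2 (3.96%), and the fit without recovery vehicle library 2 and palbociclib library 3 also 2 (4.48%). After recovery DESeq2 passed 1 (0.107%). For palbociclib tumours over time DESeq2 passed 5 (4.42%), the fit on only these groups 10 (9.2%) and that without the same 2 libraries 5 (6.05%); for the difference between stages that last fit passed 1 (0.809%). With no filter on low counts 12, 23, 5, 26 and 17 genes passed at the end of treatment, after recovery, for the difference and over time in vehicle and palbociclib tumours, beside 1.96%, 2.06%, 0.832%, 2.92% and 2.98% of all genes; the median prior degrees of freedom was then infinite against 5.995, so each gene was given the common spread. With single libraries left out the counts ran from 0 to 2, 0 to 1, 0 to 0, 0 to 1 and 0 to 5 in the same order.

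At the end of treatment COL17A1 ran from -0.51 to 0.20 with single libraries left out. Without vehicle libraries 2 and 3 COL1A1 was at 0.16, COL3A1 at -0.37, COL17A1 at 0.15, LAMB3 at 1e-04 and ITGB4 at 0.0857. For the difference, ITGA3 ran from -0.46 to 0.30 and ITGB1 from -0.39 to 0.0787 with single libraries left out, COL1A1 was at -0.56 and ITGA2 at -0.25 without vehicle libraries 2 and 3, and COL6A2 at 0.13 without recovery vehicle library 2 and palbociclib library 3. In vehicle tumours over time the ranges were -0.17 to 0.20 for COL4A2, -0.15 to 0.21 for COL4A5, -0.0455 to 0.85 for COL12A1, -0.17 to 0.0858 for LAMA5, -0.0103 to 0.34 for LAMC1 and -0.0128 to 0.56 for ITGA6, and without the 2 recovery libraries -0.17, -0.15, -0.0457, 0.0856, -0.0103 and -0.0129. In palbociclib tumours COL17A1 ran from -0.28 to 0.64, and was at -0.28 without the 2 recovery libraries. The cause of these changes was not tested.

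The mean log2 difference between basement membrane and fibrillar genes became 5.73, 6.11, 4.83 and 4.89 as a median (vehicle, palbociclib, then both at recovery) and 2.84, 2.89, 3.22 and 2.86 over genes with a mean log2 CPM of at least 1. With a prior count of 5 it was 3.72 and 3.61 at recovery. No paired analysis was possible because the labels number no replicates; the numbers used here follow the accession order and pair no tumours. The fits without 2 libraries were chosen after the data were seen. With 3 tumours per group, genes near 1 CPM such as COL1A2 and ITGA9 rest on few counts.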
